A study of Mus musculus with 3 samples.

Results

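Transcripts of 10 complement and acute-phase genes were described in RAW 264.7 cells, a mouse macrophage line, out of 54331 features in the deposited table. The genes were listed by symbol without a cutoff on any measured value, but with earlier results of these data known. Shares of these genes set beside those of all features are therefore descriptions and not tests. They are C3, Cfb and Cfp of the alternative pathway, C1qa, C1qb and C1qc of the classical pathway, the receptors C3ar1 and C5ar1, and the acute-phase genes Saa3 and Lcn2. All 10 were found, and 7 had a mean value of at least 10 over the libraries and entered the tests, whereas the C1q genes did not.

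RNA was sequenced in 3 libraries of RAW 264.7 cells, which the labels give as male, of BALB/c background and, in the control, of wild-type genotype. The control library came from cells with a control shRNA, and 2 libraries came from cells with shRNAs against GIV (Girdin, gene Ccdc88a), 1 shRNA per library. These 2 libraries are labelled GIV-depleted and are called sh1-labelled and sh2-labelled after their titles. Cells of all 3 libraries had received the TLR4 ligand lipopolysaccharide (LPS) at 100 ng/mL for 5 h, so the comparisons are between LPS-treated cells, and untreated cells were not analysed here. The labels do not say how the shRNAs were delivered or whether cells were cloned. Nothing in them says that the libraries came from separate cultures, and the control has no replicate.

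Complement is a cascade of plasma proteins that marks targets for uptake and lysis. In the classical pathway C1q, built from the products of C1qa, C1qb and C1qc, binds antibody or other ligands and activates proteases. In the alternative pathway C3 deposited on a surface binds factor B, the product of Cfb, and properdin, the product of Cfp, stabilises the resulting convertase. Cleavage of C3 and C5 releases small fragments that signal through the receptors encoded by C3ar1 and C5ar1. Macrophages make several of these proteins themselves. Acute-phase proteins rise in plasma during inflammation, and Saa3, a serum amyloid A made outside the liver in mice, and Lcn2, which binds bacterial iron-carrying siderophores, are known as LPS-induced genes of mouse macrophages.

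Between 20030 and 20590 features had a value above 0 in a library, and totals ranged from 47349097 to 49756670 normalized counts. The smallest common value, about 1 read, was 0.93 in the control, 1.11 in the sh1-labelled library and 0.97 in the sh2-labelled library. Ccdc88a mRNA was 2580 normalized counts with the control shRNA, 1734 in the sh1-labelled library and 2561 in the sh2-labelled library. For Ccdc88a mRNA the sh2-labelled library therefore goes against its label, and directions over both libraries rest in part on that library. Differences below are of log2(normalized counts + 1) from the control, and folds are ratios of normalized counts + 1, which understates the change of low genes. Fewer cells of a type and less RNA per cell cannot be told apart in such bulk samples.

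The promoters of C3 and Saa3 are shown first, because among the 7 tested genes they had the largest difference from the control in a single library, C3 in the sh2-labelled library and Saa3 in the sh1-labelled library. The letters are those of RefSeq (GRCm38.p6), which held windows for 8 of the 10 genes, each running from 250 bases before the transcription start to 50 after it. For Saa3 the 24 bases next to the start are left out because GENCODE M21 places them in an exon. Capitals mark matches to the C/EBP motif TTNNGNAA or to the interferon-stimulated response element (ISRE) consensus, on either strand.
C3 promoter, chr17:57228137-57228386, minus strand: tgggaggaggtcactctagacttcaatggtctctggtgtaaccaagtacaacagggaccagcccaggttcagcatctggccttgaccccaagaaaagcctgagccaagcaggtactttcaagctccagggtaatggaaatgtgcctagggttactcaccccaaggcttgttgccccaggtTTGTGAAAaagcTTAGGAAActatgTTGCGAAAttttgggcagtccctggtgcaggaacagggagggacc
Saa3 promoter, chr7:46715701-46715926, minus strand: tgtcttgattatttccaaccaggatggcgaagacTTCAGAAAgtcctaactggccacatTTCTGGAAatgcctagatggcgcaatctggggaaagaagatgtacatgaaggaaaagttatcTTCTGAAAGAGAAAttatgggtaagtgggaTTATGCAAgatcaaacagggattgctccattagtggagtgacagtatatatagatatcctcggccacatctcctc

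C/EBP proteins are transcription factors of myeloid and acute-phase genes, and the ISRE is the element bound by interferon-activated factors. The C3 window held C/EBP matches starting 70, 58 and 45 bases before the start, all within the stretch next to it. The last of them reads TTGCGAAA and matches on both strands. The Saa3 window held C/EBP matches starting 216, 191, 129 and 99 bases before the start. Its ISRE match starts 125 bases before the start and overlaps the C/EBP match that begins at 129. Of 32851 RefSeq windows of 300 bases, 40.7% held at least 1 C/EBP match, so a single match is common, and 3.44% held an ISRE match. The windows of C3 and Saa3 held no match to the NF-kB consensus, which 8.46% of windows held, or to the GAS, TTCNNNGAA, which 8.3% held. The Lcn2 window had 1 C/EBP match, starting 216 bases before the RefSeq start. GENCODE M21 places that whole window within the Lcn2 gene. Matches were also found in the windows of C5ar1 (C/EBP) and C1qc (C/EBP and the NF-kB consensus). A match describes these letters and was not tied to binding in these data.

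Setting the libraries labelled GIV-depleted against the control asks whether complement and acute-phase transcripts of LPS-treated macrophages depend on GIV. No gene of the 7 tested passed an adjusted p of 0.05 in limma, where 0% of the 13877 tested features did, the lowest adjusted p among them being 0.055. At an unadjusted p under 0.05 there were 2 of the 7, Cfb and C3ar1, both with lower values, against 6.94% of all tested features. Lower values than the control in both libraries were found for 4 of the 7 (Cfb, Cfp, C3ar1 and Saa3), against 35.2% of all tested features. Of these, Cfp turned positive in both libraries with a trend on GC content and length removed, and in the sh2-labelled library also with equal totals and with quantile normalization. Saa3 lay near 0 in the sh2-labelled library and had a difference of 0.00 there, just above 0, with quantile normalization. Higher values in both libraries were found for C3 alone among the 7, against 34.9% of all tested features. Both comparisons share the single control.

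**Figure D1:**
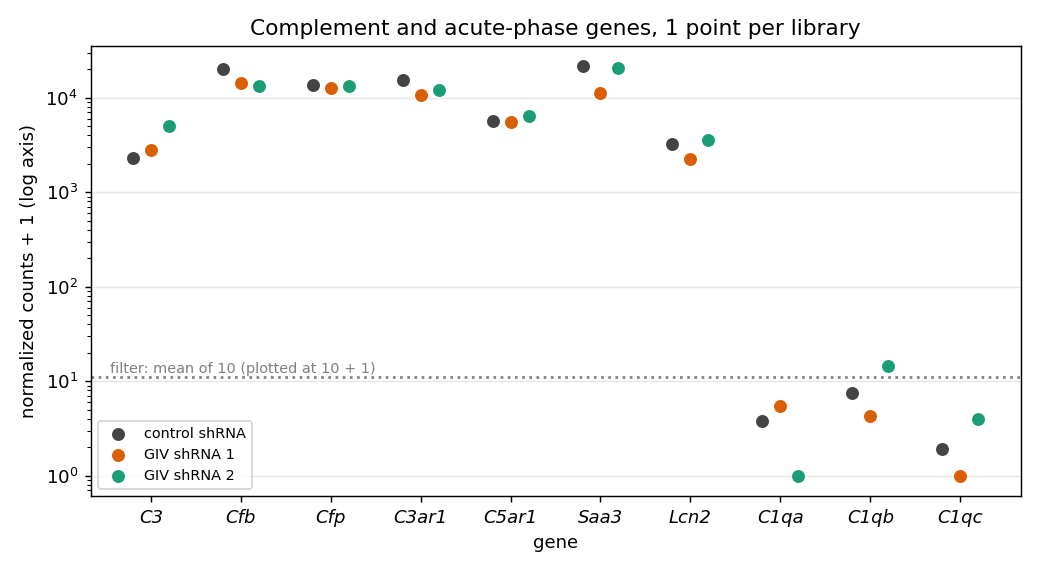
Normalized counts + 1 on a log axis for each of the 10 genes, with 1 point per library (grey, control shRNA; orange, shRNA 1; green, shRNA 2). Genes other than C1q lie at or above 2267 in every library, while C1qa, C1qb and C1qc lie at or below 13.5 normalized counts.

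C3, the central component on which all complement pathways converge, had 2288 normalized counts with the control shRNA, 2795 in the sh1-labelled library and 5052 in the sh2-labelled library (ENSMUSG00000024164.15, chromosome 17, 57203970 to 57228136, GRCm38, minus strand). It was highest in the sh2-labelled library, and the sh1-labelled library lay much nearer to the control. The fold over the control was 1.22 for shRNA 1 and 2.21 for shRNA 2. C3 was the 1 gene of the 7 past 2-fold in the sh2-labelled library, where 7.32% of tested features passed, and none of the 7 was past 2-fold in the sh1-labelled library, where 6.92% passed. Its difference in the sh2-labelled library lay above that of 96.1% of tested features. For both libraries together it was 0.72 (SE 0.39, adjusted p = 0.77 in limma). The libraries labelled GIV-depleted differed from each other by 1.81-fold in C3.

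Cfb, which encodes factor B, the protease subunit of the alternative pathway convertase, had 19918 normalized counts with the control shRNA, 14167 in the sh1-labelled library and 13338 in the sh2-labelled library. The latter libraries lay close to each other and below the control, at 0.71 and 0.67 of it. The difference over both was -0.54 (SE 0.13), with an unadjusted p of 0.013 and an adjusted p of 0.54 in limma, and with every scaling tried it stayed between -0.54 and -0.48. Cfb (chromosome 17, 34856374 to 34862518, minus strand) is overlapped on the same strand by Gm20547, a protein-coding gene that reaches from Cfb into its neighbour C2. Gm20547 had 27.0, 9.998 and 0 normalized counts, and reads of the shared exons cannot be told apart by gene. Cfp, which encodes properdin (X chromosome, 20925454 to 20931555), had 13686 normalized counts with the control shRNA, 12547 in the sh1-labelled library and 13311 in the sh2-labelled library. These values differ by little, with a difference over both of -0.08 (SE 0.12, adjusted p = 0.91 in limma). Within the alternative pathway, then, C3 had higher values, Cfb lower values and Cfp values near the control's in the libraries labelled GIV-depleted, none with an adjusted p under 0.05.

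The receptors differed from one another as well. C3ar1, the receptor for the C3 fragment, had 15265 normalized counts with the control shRNA, 10628 in the sh1-labelled library and 11971 in the sh2-labelled library. Both libraries labelled GIV-depleted lay below the control, at 0.70 and 0.78 of it. The difference was -0.44 (SE 0.14), with an unadjusted p of 0.036 and an adjusted p of 0.69 in limma. C5ar1, the receptor for the C5 fragment and a chemotactic receptor of myeloid cells, had 5613 normalized counts with the control shRNA, 5504 in the sh1-labelled library and 6468 in the sh2-labelled library. The control and the sh1-labelled library were nearly equal, and the sh2-labelled library was 1.15-fold above the control (difference over both 0.09, SE 0.16, adjusted p = 0.92 in limma). C3ar1 lies on chromosome 6, 122847138 to 122856161, and C5ar1 on chromosome 7, 16246743 to 16259540.

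**Figure D2:**
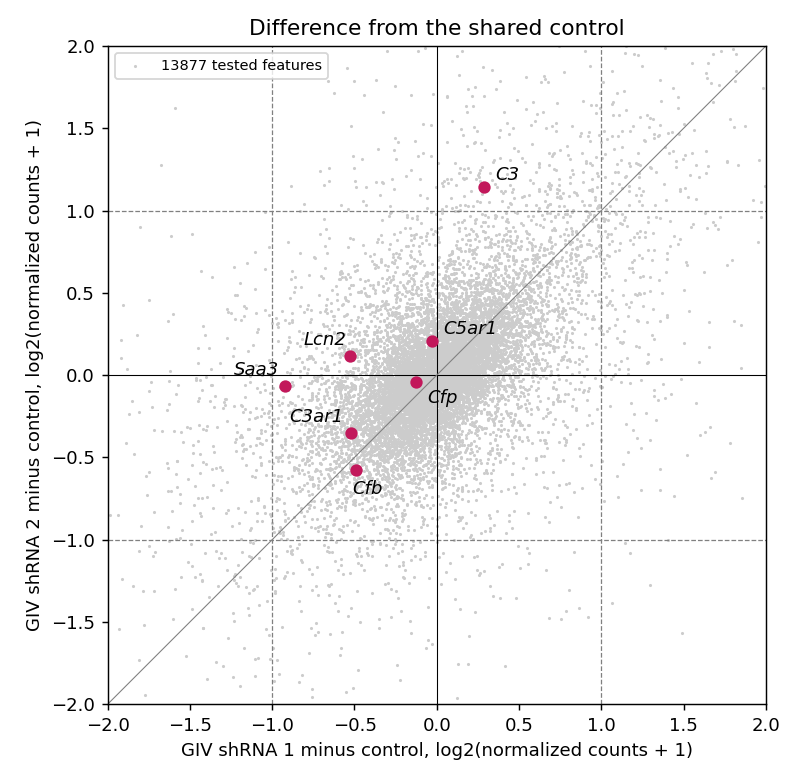
Difference of each library labelled GIV-depleted from the shared control on the log2(normalized counts + 1) scale, shRNA 1 on the x axis and shRNA 2 on the y axis, for 13877 tested features (grey; 402 lie outside the axes) and the 7 tested genes (red); dashed lines mark 2-fold. C3 lies above the upper 2-fold line, Saa3 and Lcn2 lie left of the diagonal near 0 on the y axis, and Cfb and C3ar1 are negative on both axes.

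Both acute-phase genes were low in the sh1-labelled library and near the control in the sh2-labelled library. Saa3 had 21473 normalized counts with the control shRNA, 11319 in the sh1-labelled library and 20517 in the sh2-labelled library (ENSMUSG00000040026.8, chromosome 7, 46711998 to 46715700, minus strand). The sh1-labelled library stood apart at 0.53 of the control, a difference of -0.92 that was lower than that of 96.6% of tested features but did not reach 2-fold. Lcn2, which encodes lipocalin-2 (chromosome 2, 32384633 to 32388252, minus strand), had 3265, 2267 and 3543 normalized counts with the control shRNA and in the sh1-labelled and sh2-labelled libraries. Its value in the sh1-labelled library was 0.69 of the control and in the sh2-labelled library it was 1.09-fold above it. The difference over both libraries was -0.49 (SE 0.39) for Saa3 and -0.20 (SE 0.31) for Lcn2, with adjusted p-values of 0.83 and 0.91 in limma, and these libraries lay further apart than in Cfb or C3ar1.

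Set against each other, the sh1-labelled and sh2-labelled libraries differed most in Saa3 and C3 among the 7 genes, by 1.81-fold each, and then in Lcn2, by 1.56-fold, all higher in the sh2-labelled library. None of the 7 reached 2-fold between these libraries, where 6.23% of tested features did, and with 1 library per shRNA there is no test. The sh1-labelled library was the lowest of the 3 in 5 of the 7 genes (Cfp, C3ar1, C5ar1, Saa3 and Lcn2), against 32.2% of all tested features. In Cfp and C5ar1 the margin was small. The differences between these libraries lay above those of 95.1% of tested features for Saa3, 95.03% for C3 and 92.2% for Lcn2.

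The subunits of C1q were near the detection floor in all libraries. C1qa had 2.80 normalized counts with the control shRNA, 4.44 in the sh1-labelled library and was listed at 0 in the sh2-labelled library, about 3, 4 and 0 reads. C1qb had 6.51, 3.33 and 13.5, about 7, 3 and 14 reads, and C1qc had 0.91, 0 and 2.97, about 1, 0 and 3 reads. C1qb and C1qc had the same order over the libraries and C1qa another. At this depth no difference between the libraries is read from so few reads. The genes lie next to one another on chromosome 4, minus strand, with C1qb at 136880129 to 136886187, C1qc at 136889804 to 136893065 and C1qa at 136895917 to 136898803. C1q is a product of many tissue macrophages. Here its transcripts were at or below 12.4 normalized counts per kilobase of transcript, against 4849 or more for Cfb and Cfp and 446 to 984 for C3 of the alternative pathway.

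Levels of different genes were compared per kilobase of the longest annotated transcript. In the control Saa3 was highest, with 9761 normalized counts per kilobase, followed by Cfp with 8365, Cfb with 7240, C3ar1 with 3546, Lcn2 with 2376, C5ar1 with 2210 and C3 with 446. Saa3 ranked 371st and C3 5306th per kilobase among 20097 features of known length with a value above 0. With the mean length of protein-coding transcripts or the length of merged exons, Saa3 stayed first and C3 last of the 7 in the control, whereas Cfp and Cfb changed places under the former and Lcn2 moved between the fourth and the sixth place. In the sh1-labelled library Saa3 had 5145 normalized counts per kilobase, below Cfp at 7669 and level with Cfb at 5150. With the mean protein-coding length it was first there too, at 8217 against 7669 for Cfp and 7410 for Cfb. With the length of merged exons it was below both there, at 4343 against 7228 for Cfp and 5015 for Cfb. In the sh2-labelled library Saa3 was again highest, at 9326, and C3 reached 984. Neighbours in this order have no spread to be judged by in the control.

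**Figure D3:**
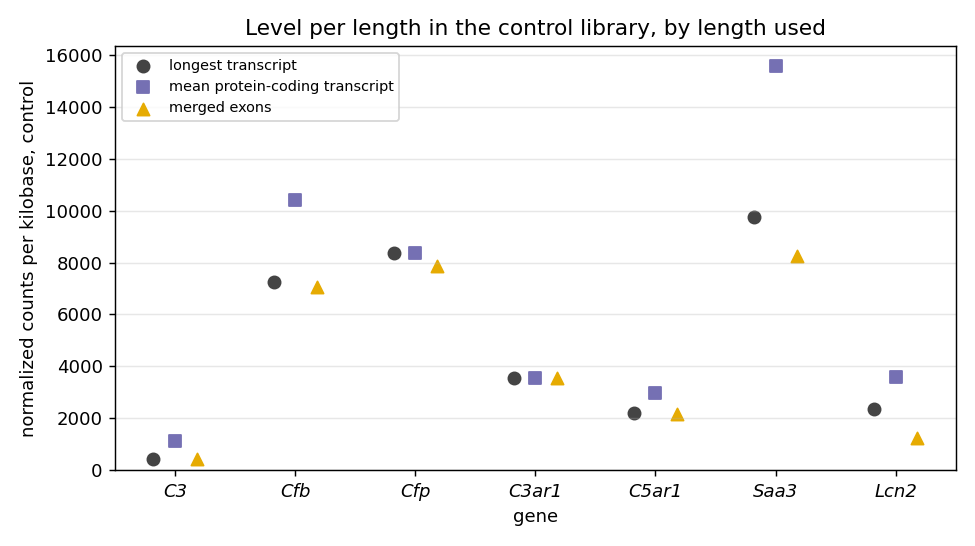
Normalized counts per kilobase in the control library for the 7 tested genes, with the longest transcript (circles), the mean protein-coding transcript (squares) or the merged exons (triangles) as the length. Saa3 is highest with each length, and C3 is lowest.

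Other genes of complement and of the acute-phase response were taken from fixed lists, and none of them passed an adjusted p of 0.05 in limma. Of 17 other genes of complement initiation and the convertases, 9 were tested, with 3 higher in both libraries, 3 lower in both and a median difference of -0.02, against 0.00 over all tested features. That median depended on low genes and became -0.34 at a mean of at least 50. The genes that rose, C1s1, C4a and C4b, had at most 66.0 normalized counts in any library. Those that fell, C1ra, C1rb and Colec12, had at least 91.5. Among the tested proteases of the C1 complex, C1ra and C1rb had lower values in both libraries and C1s1 higher ones. C1s1 was under 10 in the control and passed the filter only through the libraries where it was higher. C1s2 was lower in both and did not pass it, with 3.75 normalized counts in the control, 1.11 in the sh1-labelled library and 0.96 in the sh2-labelled library. C1ra had 2042, 1186 and 1568 normalized counts with the control shRNA and in the sh1-labelled and sh2-labelled libraries, and its near-copy C1rb 146, 91.5 and 107. C1s1 had 3.27, 16.7 and 19.9, and C4a, a copy of the C4 gene whose reads may be shared with C4b, had 16.3, 66.0 and 29.3. C1s1 and C4a were therefore low in every library, and Cfd, the protease that activates factor B, was listed at 0 in all 3, as were the mannose-binding lectins Mbl1 and Mbl2.

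Of 7 terminal pathway genes only C9 was tested, with 7.99, 27.8 and 27.4 normalized counts (difference 1.67, SE 0.49, adjusted p = 0.67 in limma), while C6, C8a and C8b were listed at 0 throughout. Of 17 complement regulators 7 were tested, with a median of 0.06. In both libraries 3 were higher, against 34.9% of all tested features, and 2 were lower, against 35.2%. Clu, which encodes clusterin, an inhibitor of the terminal complex, had 880, 1380 and 2667 normalized counts, highest in the sh2-labelled library as C3 was. Cd59a, an inhibitor of the terminal complex on cell surfaces, had 256, 170 and 221, and Cd46, a surface cofactor for C3 cleavage, had 30.4, 57.7 and 49.96. Of 9 other complement receptors and binding proteins 7 were tested. In both libraries 2 were higher and 1 was lower, against the same 34.9% and 35.2%. The median was 0.11. That median was -0.14 in the sh1-labelled library alone and 0.08 in the sh2-labelled library alone. The 1 lower in both was Lrp1, an endocytic receptor, with 14083, 10322 and 10187 normalized counts. C5ar2, the second receptor for the C5 fragment, had 23.4, 18.9 and 40.4, and Itgax, a subunit of a receptor for deposited C3 fragments, had 725, 970 and 764. Cd93 had 8.43, 5.56 and 26.0. The macrophage complement receptor Vsig4 and the B-cell receptor Cr2 were listed at 0 in all libraries.

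Of 27 other acute-phase genes 10 were tested. In both libraries 3 were higher, against 34.9% of all tested features, and 4 were lower, against 35.2%. The median was -0.05. That median was -0.12 in the sh1-labelled library alone and 0.11 in the sh2-labelled library alone. Cp, which encodes the copper-carrying ferroxidase ceruloplasmin, had 1399 normalized counts with the control shRNA, 2823 in the sh1-labelled library and 6395 in the sh2-labelled library. It was thus at least 2-fold higher in each library, and like C3 was highest in the sh2-labelled library (difference 1.60, SE 0.53, adjusted p = 0.69 in limma). Il1rn, the interleukin-1 receptor antagonist, had 177041, 253373 and 226525. Hp, which encodes haptoglobin, had 31.7, 8.94 and 24.9, and Hamp, which encodes hepcidin, had 3.73, 25.6 and 16.4. Hamp, like C9, was under 10 in the control and passed the filter only through the libraries where it was higher. The other serum amyloid A genes Saa1, Saa2 and Saa4 had at most 6.48 normalized counts in any library, and Saa3 was the 1 serum amyloid A gene above the filter.

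**Figure D4:**
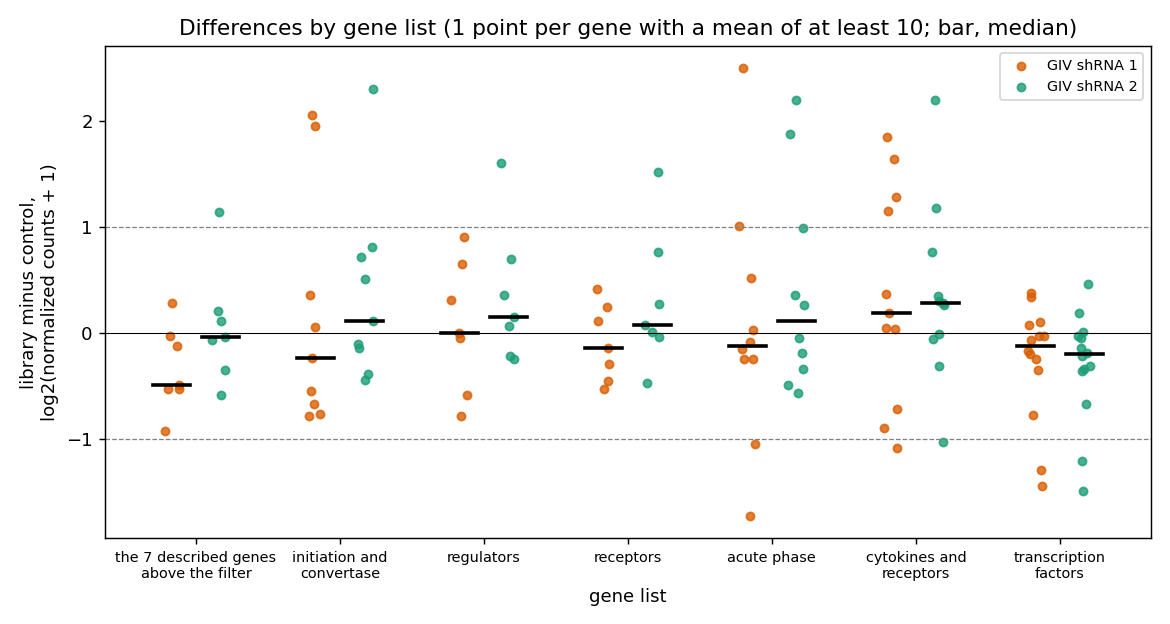
Difference of each library from the control on the log2(normalized counts + 1) scale for genes with a mean of at least 10, by list, with 1 point per gene and a bar at the median (orange, shRNA 1; green, shRNA 2; dashed lines, 2-fold). The 7 tested genes have medians of -0.49 and -0.04, and the other lists of complement and acute-phase genes spread on both sides of 0.

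Among cytokines of the acute-phase response, their receptors and the receptors of serum amyloid A and lipocalin-2, 11 of 12 genes were tested. In both libraries 6 were higher, against 34.9% of all tested features, and 2 were lower. The median was 0.23, and it was 0.32 with the GC and length trend removed and 0.15 without a filter. Il6 and Il1b, which induce acute-phase genes, had higher values in both, at 1957, 6114 and 8985 and at 31161, 75964 and 52880 normalized counts, while Saa3 and Lcn2 did not. A link between these cytokines and Saa3 or Lcn2 was not tested. Lif, another cytokine of the family, was high in the sh1-labelled library, with 3760, 13544 and 4637, and its receptor Lifr was low throughout, with 7.495, 7.77 and 18.3. Of 14 transcription factors known for these genes, all were tested, with 2 higher in both libraries, 9 lower in both, against 35.2% of all tested features, and a median of -0.20. That median was -0.07 with the GC and length trend removed and -0.12 without the sh2-labelled library. Cebpd, a C/EBP factor of the acute-phase response, had 10033, 7870 and 3593 normalized counts, lowest in the sh2-labelled library, where Saa3 was near the control and C3 highest. Whether Cebpd is linked to the values of Saa3 or C3 was not tested. Cebpe had 73.2, 29.4 and 64.3. Maf, a factor of macrophage differentiation, had 5352, 3141 and 4249.

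Markers of cell types were read beside these values. Of 8 macrophage markers all were tested, and 5 were lower in both libraries, against 35.2% of all tested features. The summed value of the 8 was 333210 in the control, 224914 in the sh1-labelled library and 256125 in the sh2-labelled library. Lyz2, with 199781, 121997 and 138145 normalized counts, made up most of that sum. Ptprc was higher in both libraries, with 14039, 16968 and 14590, and Itgam and Adgre1 were lower in the sh1-labelled and higher in the sh2-labelled library. The sum, like Cfb and C3ar1, was below the control in both libraries, but it was lowest in the sh1-labelled library, as C3ar1 was, and Cfb was lowest in the other. Its part in their differences was not tested. Neutrophils store lipocalin-2, but 1 of 10 neutrophil markers was tested (S100a8), the summed value was 47.8 to 78.4, and Ly6g, Elane, Ngp and Retnlg were at 0 in all libraries. The liver is the main source of plasma complement and acute-phase proteins, and none of 8 hepatocyte markers was tested, with a summed value of 1.84 to 4.83 and Ttr, Tat, Apob and Serpina1c at 0 throughout. Fibroblast markers (0 of 7 tested, sums of 5.57 to 6.54) and lymphocyte markers (1 of 7, 9.36 to 28.9) were low as well. Of 7 dendritic cell markers 3 were tested, with sums of 1122 to 1285, most of it from Itgax, which macrophages also express, and from Xcr1, with 383, 278 and 320 normalized counts. Flt3 and Siglech were at 0 in all libraries.

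The genes most like C3 and Cfb, the 2 genes with the largest absolute difference over both libraries, were named by distance between pairs of differences from the control, over 3 libraries and 10389 protein-coding features with a mean of at least 50. Nearest to C3 were Acsbg1, at a distance of 0.01 with 47.6, 58.0 and 106 normalized counts, Celsr3 (0.06) and Meis2 (0.07). Nearest to Cfb were Hook2, at 0.01 with 1455, 1044 and 976 normalized counts, Tmem80 (0.02) and Rab4b (0.02). The genes named for C3 had at most 90.1 normalized counts in the control, against 2288 for C3. With only 2 differences per gene, sharing 1 control, and so many features searched, small distances are easily found. They are descriptions and not tests.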

How the data were processed

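The authors deposited normalized counts, 1 column per library, used here as a non-negative signal. Salmon, DESeq, DESeq2 and GRCm38 are named, without versions or roles, in the submitters' processing notes. Columns were matched to libraries by name. Identifiers were matched without version to GENCODE M21 (GRCm38), which gave symbols for 54097 of 54331 features, positions and lengths. The 13877 features with a mean of at least 10 were tested on log2(value + 1) with limma 3.58.1 in R 4.3.3 (moderated by eBayes along a mean-variance trend; two-sided; Benjamini-Hochberg over all tested features), 2 libraries against 1. There is 1 residual degree of freedom, which for each gene is the difference between the sh1-labelled and sh2-labelled libraries, moderated over all tested features. Those libraries carry different shRNAs, so the spread behind SEs and p-values may be technical or lie between the shRNAs, and these cannot be told apart. The control library is taken to vary like the others. For a single library there is no test, and at least 2-fold was used as a size rule. Genes under 10 in the control, C1s1, Cd93 and Lifr among them, passed the filter only through libraries labelled GIV-depleted. The genes and lists were chosen with earlier results of these data known. From each list the 4 tested genes with the largest absolute difference over both libraries were named (all tested genes where a list had 6 or fewer), and some genes that this rule names are not reported here. Genes named as listed at 0 or as low, Saa1, Saa2 and Saa4 among them, were chosen after their values were seen. Values of near-identical copies (C4a and C4b, C1ra and C1rb, Cd59a and Cd59b) are uncertain. Alternatives changed the pseudocount, filter, scaling, variance trend, fold rule, gene length and the library left out.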

Additional observations from a re-analysis of the deposited data

How the results depend on the processing

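No gene of the 7 tested passed an adjusted p of 0.05 under any of 9 alternatives each, the lowest adjusted p being 0.31, for Cfb. Directions over both libraries held except for Cfp, whose difference became 0.051 with the GC and length trend removed. C3 in the sh2-labelled library stayed past 2-fold (1.14 to 1.19), and Saa3 in the sh1-labelled library stayed short of it (-0.95 to -0.91). Leaving out 1 library labelled GIV-depleted gives the single-library differences, with no test: C3 1.14 or 0.29, Saa3 -0.07 or -0.92, Lcn2 0.12 or -0.53, without shRNA 1 and without shRNA 2. Over all features, 0 were called, and 963 had an unadjusted p under 0.05 in limma. Only 1, Gm10443, a pseudogene listed at 0 in the control, was called with equal totals, with the GC and length trend removed and at a mean of at least 50. Without a filter 2716 features had an unadjusted p under 0.05. The count past 2-fold, 960 for shRNA 1 and 1016 for shRNA 2, became 593 and 677 with a pseudocount of 10, 5419 and 4344 without a filter, 382 and 424 at a mean of at least 50, and 2314 and 2384 under a 1.5-fold rule. No paired analysis was possible because there is 1 control library. Depth limits the C1q genes, at 14 reads or fewer.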

Other observations

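Several genes, chosen after their values were seen, were lowest in the sh1-labelled library, as Saa3 and Lcn2 were. That library was the lowest of the 3 in 32.2% of all tested features, so such genes are common. Fpr2 and Saa3 were highest in the control and the others, like Lcn2, in the sh2-labelled library. A link between these genes and Saa3 or Lcn2 was not tested. The formyl peptide receptors Fpr1 and Fpr2, the latter a receptor for serum amyloid A, had 253 and 1036 normalized counts with the control shRNA, 119 and 556 in the sh1-labelled library, and 308 and 998 in the sh2-labelled library. S100a8, which encodes a calcium-binding protein of myeloid cells, had 68.8, 45.6 and 75.5, and the serpin Serpina3g had 49.2, 23.3 and 98.8. Masp2, a protease of the lectin pathway, had 345, 203 and 373. These libraries share 1 control, and no gene here passed an adjusted p of 0.05 in limma.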
